A study of Homo sapiens with 42 samples.

Results

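Hep3B is an established human hepatoma line that makes many plasma proteins of the liver. The comparison described here sets Hep3B cells kept for 16 h in the control medium, called NCM, against Hep3B cells in the same medium at the start of the course, called T0. It rests on 6 of the 42 arrays of the series, 3 at each time, chosen by the medium and time in the labels and by no measured value. The other arrays hold NCM at 5 times between these and a medium enriched in inflammatory cytokines, called CM, at all 7 times. The labels tie each NCM culture to a CM culture of its own time, made from 1 batch of trypsinized cells. The 3 replicate numbers at each time were taken as 3 independent experiments. The labels do not tie the T0 cultures to the 16 h cultures, so the 2 times were compared as unpaired groups.

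Both groups are the same line in the medium without cytokine enrichment, and they differ in the labels by the length of culture alone. The labels do not give the composition of NCM, and a T0 culture had been detached with trypsin with no stated time of recovery. Length of exposure to the medium and time since detachment therefore cannot be told apart in this design. The model is 1 tumour line and holds none of the other cell types of liver.

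Hepatocytes secrete albumin, transferrin, apolipoproteins, clotting factors and complement into plasma, and hepatoma lines keep much of this programme while they divide. Ribosomal proteins are the structural subunits of the cytosolic ribosome, and their messenger RNAs are among the most abundant in dividing cells. Most of these messages begin with a run of pyrimidines at the start site, the terminal oligopyrimidine tract, through which growth signals set their translation.

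The hepatoma label was checked against 20 marker genes of hepatocyte and hepatoma cells, of which 19 were measured. Of these, 14 lay above the array's median probe on all 6 arrays, among them ALB and AFP. Over all genes, 1300 of 5631 did so. Summed over the 19 genes, the linear intensity was 41.1 to 44.7 on the T0 arrays and 33.8 to 42.8 on the 16 h arrays. Markers of 6 other cell groups had 3 to 8 measured genes each, and none was at the floor on all 6 arrays. Above the array's median probe on all 6 arrays lay 1 each of the fibroblast and stellate, endothelial, erythroid and bile duct markers. For the macrophage and for the lymphocyte markers this count was 0. The 8 measured fibroblast and stellate markers summed to 4.85 to 5.11 at T0 and 3.69 to 4.51 at 16 h. The 5 endothelial markers summed to 4.66 to 5.41 at T0 and 4.07 to 4.45 at 16 h. Both sums lay lower at 16 h with no overlap. By log2 change, 6 of the fibroblast and stellate markers were lower and 2 higher. Of the endothelial markers, 3 were lower and 2 higher, where 53.5% of all genes were lower. The sums of the macrophage, lymphocyte, erythroid and bile duct markers overlapped between the times. The part of these markers in the results below was not tested.

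The arrays themselves fell into 4 clusters by the correlation of all probes, and these did not follow the groups. NCM T0 replicates 1, 2 and 3 lay in clusters 1, 2 and 3, and NCM 16 h replicates 1, 2 and 3 in clusters 2, 1 and 1. Correlations between a T0 and a 16 h array ran from 0.70 to 0.93, while those within a group ran from 0.73 to 0.84 at T0 and from 0.79 to 0.86 at 16 h. The highest of them, 0.93, was between T0 replicate 1 and 16 h replicate 2. Phosphoglycerate kinase, PGK1, shows the size of this effect. Its log2 intensity was -2.26, 2.5 and 2.59 at T0 and 3.16, -2.34 and -0.93 at 16 h. The 3 arrays of cluster 1 were the 3 low ones, at either time. Changes of probes with neighbouring numbers were also correlated, at r = 0.24 between adjacent numbers across 13824 probes, which are not independent replicates. For some genes the change is therefore also given after subtracting the mean of the neighbouring probes.

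No probe passed the test of 16 h against T0. With limma and Benjamini-Hochberg adjustment, 0 of 13824 probes (0% in either direction) had an adjusted p under 0.05. At an unadjusted p under 0.05 there were 520 probes (3.76%), 228 higher (1.65%) and 292 lower (2.11%), where 691.2 would be expected from 13824 tests with no change. The median standard error of a change was 0.37 on the log2 scale. In simulated data of this design, the test found 6 of 50 probes given a log2 change of 1 and 40 of 50 given a change of 2. Changes of about 2-fold or less were therefore mostly below what 3 arrays a group could show, and the values that follow are measurements that did not pass. For each gene, values are log2 of the quantile-normalized intensity of its brightest probe.

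Most lists of liver functions had a median change near that of all 5631 genes, which was -0.03 on the log2 scale. The median change from T0 to 16 h was 0.03 over 17 plasma carrier proteins, -0.08 over 16 apolipoproteins and their partners, -0.05 over 24 clotting and fibrinolysis genes and -0.0019 over 21 complement genes. It was -0.01 over 12 liver transcription factors. For metabolism it was 0.02 over 15 genes of cholesterol synthesis and uptake, -0.0051 over 21 genes of fatty acid synthesis, -0.05 over 16 genes of gluconeogenesis and glycogen, -0.0096 over 17 genes of fatty acid oxidation, -0.06 over 12 genes of bile acids and 0.01 over 31 phase I enzymes. The list with the highest median, amino acid breakdown and the urea cycle, stood at 0.12 over 26 genes, with 17 higher and 9 lower, and at 0.03 without NCM T0 replicate 2. Farther down lay the hepatoma identity list, which shares genes with the plasma protein lists, at -0.16 with 12 of 19 lower. The 21 phase II enzymes stood at -0.12 with 13 lower. Over all genes 53.5% were lower. The median level of the hepatoma identity list was 0.66, 1.01 and 0.87 on the T0 arrays and 0.48, 0.15 and 0.51 on the 16 h arrays, and that of the phase II enzymes -0.66, -0.41 and -0.64 against -0.89, -1.03 and -0.81. Neither set of 3 arrays overlapped the other, but without NCM T0 replicate 1 the median change of the hepatoma identity list was 0.035, and without T0 replicate 2 that of the phase II enzymes was -0.05. No member of these lists passed the test. Medians this close to 0 often changed sign when 1 array was left out. In several lists the summaries differ in sign. For the plasma carriers the median of the changes was 0.03, while the median of their levels was 0.41, 0.67 and 0.61 on the T0 arrays and 0.04, -0.13 and 0.36 on the 16 h arrays. For complement, at -0.0019, the levels were -0.88, -0.79 and -0.69 against -0.42, -0.61 and -0.6. For 13 genes of endoplasmic reticulum chaperones and the unfolded protein response, at 0.06, they were -0.51, -0.76 and -0.32 against -1.06, -0.92 and -0.95.

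**Figure D1:**
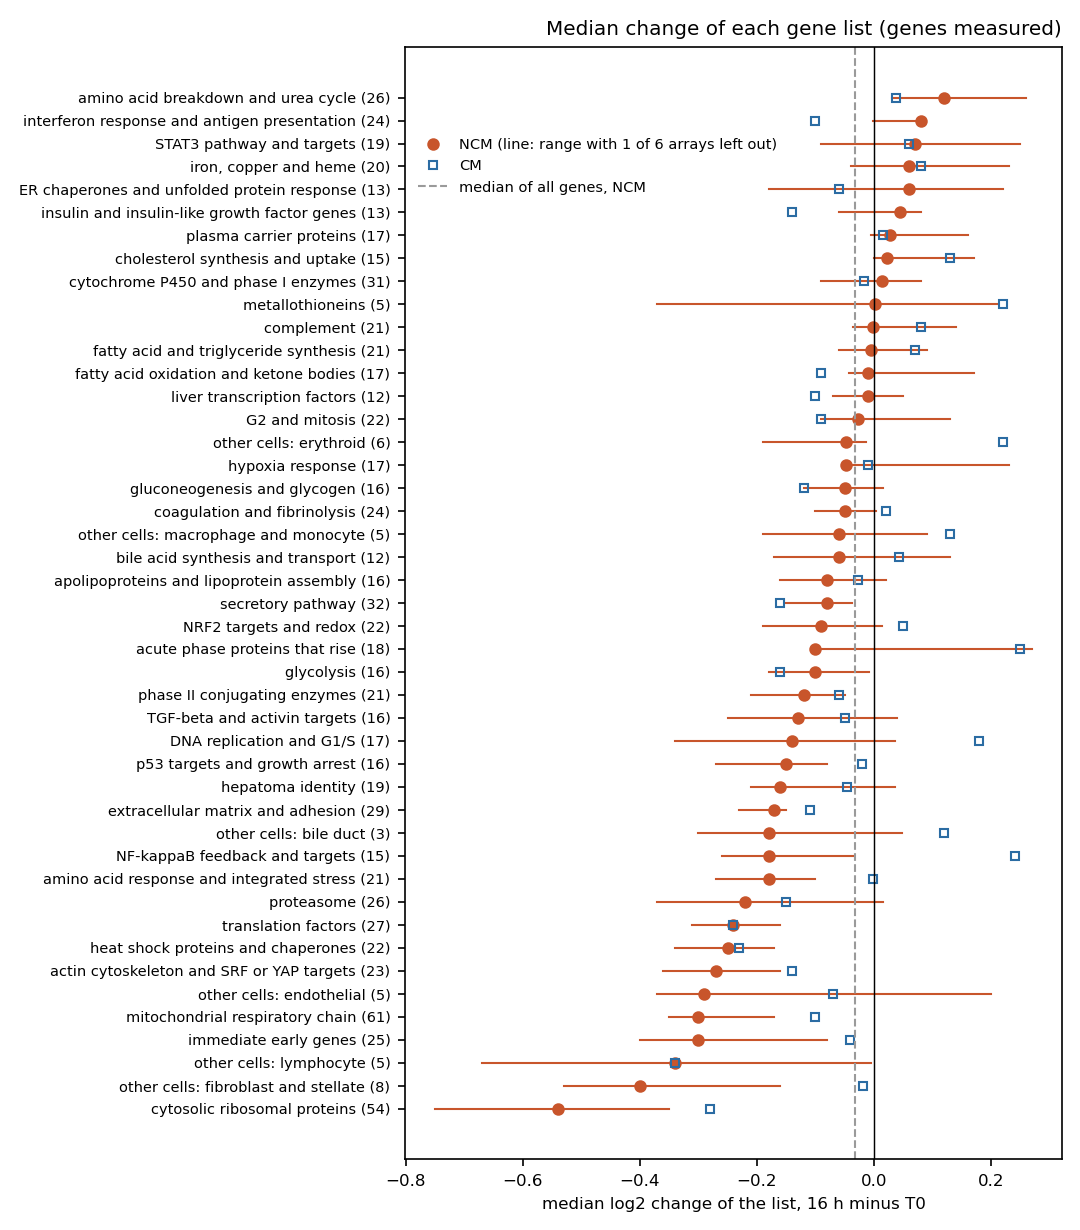
Median log2 change from T0 to 16 h for each of 45 gene lists, with the number of measured genes in brackets; circles are NCM, lines span the NCM medians with each of the 6 arrays left out in turn, squares are CM, and the dashed line is the NCM median of all genes. Cytosolic ribosomal proteins lie lowest in NCM at -0.54, and most liver function lists lie within 0.12 of 0.

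Albumin and alpha-fetoprotein, the main plasma proteins of adult and fetal liver, had groups that overlapped. ALB read 1.67, 1.81 and 1.48 at T0 and 1.84, 1.51 and 1.69 at 16 h, a difference of 0.027 with a standard error of 0.22. The difference was less than the spread between arrays, and the 6 ALB probes gave differences from -0.49 to 0.53. AFP read 2.11, 2.2 and 2.3 at T0 and 2.89, 2.28 and 2.38 at 16 h, a difference of 0.32 ± 0.22 (SE). The highest array was 16 h replicate 1, T0 replicate 3 lay above the lowest 16 h array, and the other 2 AFP probes gave -0.78 and -0.09. Transthyretin, the carrier of thyroid hormone, differed by -0.045 ± 0.46, and transferrin, TF, the iron carrier, by 0.07 ± 0.45, where the mean of its 8 probes was -0.43.

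Among lipoprotein genes, APOA1, the main protein of high-density lipoprotein, read 0.74, 1.19 and 0.97 at T0 and 0.61, -0.2 and 0.51 at 16 h. The 3 arrays at 16 h lay below the 3 at T0, and the difference was -0.66 ± 0.5 (SE, limma adjusted p = 0.998). Its other probes gave -0.75 and -0.47, and in CM the same span gave -0.84. APOB and APOE, which carry low-density lipoprotein and remnants, differed by -0.22 ± 0.56 and -0.09 ± 0.67 with groups that overlapped.

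The acute phase proteins are the plasma proteins that hepatocytes make more of under inflammatory cytokines. Over 18 measured members the median change was -0.10 in NCM and 0.25 in CM. The NCM value had no firm sign, since it was 0.27 without NCM 16 h replicate 1, 0.04 without 16 h replicate 2 and 0.024 and 0.038 without T0 replicates 2 and 3. ORM1, orosomucoid, read 0.41, 0.67 and 0.54 at T0 and -0.17, -0.28 and 0.36 at 16 h. All 3 arrays at 16 h lay lower, by a mean of 0.57 on the log2 scale (limma adjusted p = 0.998), and the other ORM1 probes gave -0.59 and -0.91. In CM, ORM1 read 0.38, 0.39 and 0.86 at T0 and 1.39, 0.71 and 1.5 at 16 h, a difference of 0.66. The test of the difference between the media gave 1.23 for ORM1 with a limma adjusted p of 0.986, so it did not pass. CRP read 0.75, 0.37 and 0.22 at T0 and 0.98, 1.19 and 0.58 at 16 h, with overlap, and its other probes gave 0.2 and -0.022. The fibrinogen chains FGA, FGB and FGG differed by 0.28, -0.17 and -0.25, each with overlap. The other FGA probes gave 0.22, -0.71 and -0.22, and on the probe at -0.71 all 16 h arrays lay below all T0 arrays. The other FGB probe gave -0.29, and the other FGG probes -0.33 and -0.71. ITIH3, a heavy chain that binds hyaluronan, was the only member with an unadjusted p under 0.05. It read -0.51, 0.06 and -0.97 at T0 and -0.81, -2.17 and -2.48 at 16 h, and its 3 probes averaged -0.58 against -1.34 for the brightest alone.

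**Figure D2:**
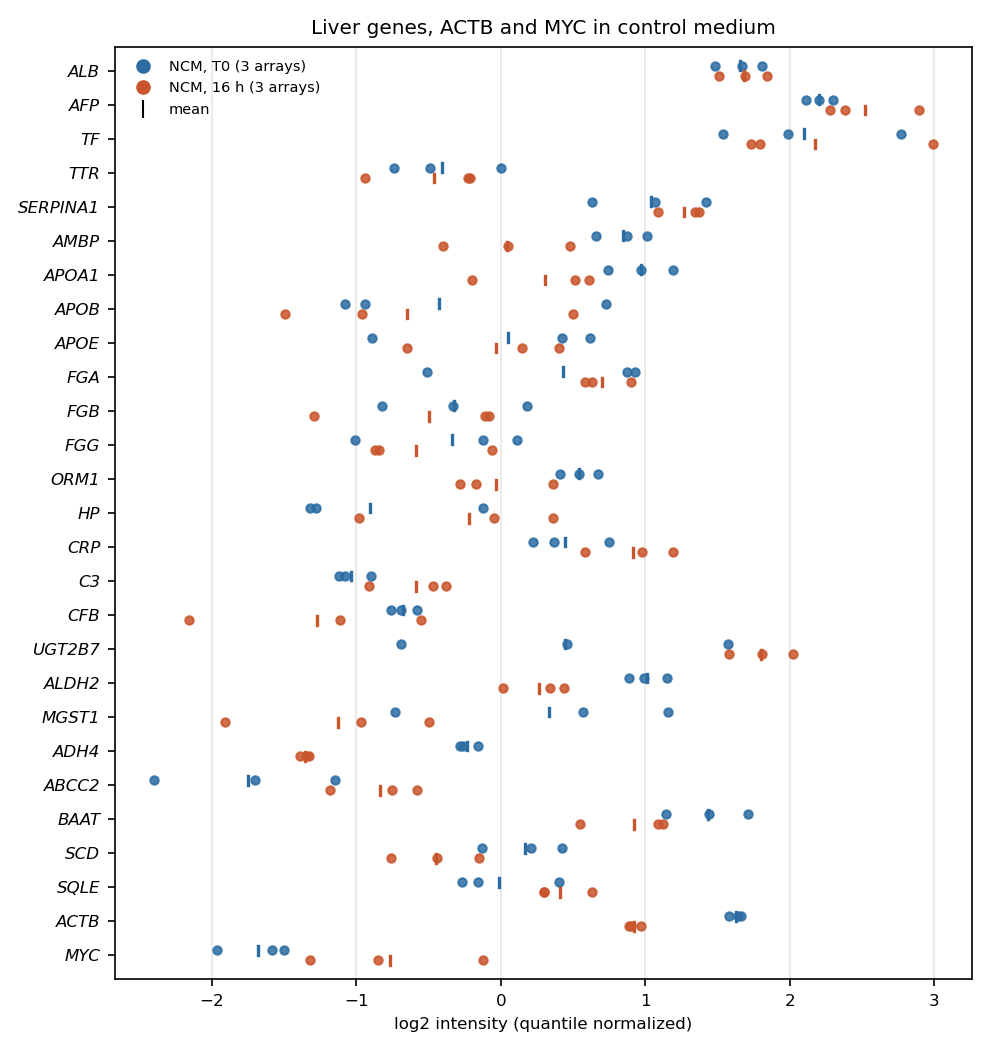
Log2 intensity of 25 liver genes, ACTB and MYC on the 3 NCM T0 arrays (blue) and the 3 NCM 16 h arrays (orange), with the mean of each group as a bar. ALB, AFP and TF overlap between the times, while ACTB, ADH4, ALDH2 and MYC do not; none passed the test.

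Drug and alcohol metabolism held wide single differences in both directions. ADH4, an alcohol dehydrogenase that also oxidizes retinol, read -0.28, -0.16 and -0.26 at T0 and -1.35, -1.39 and -1.33 at 16 h. The 3 arrays of each time lay close together, and the gap was 1.12 on the log2 scale, with 16 h lower (limma adjusted p = 0.998). The other 4 ADH4 probes gave 0.015, 0.09, -0.82 and -0.92, and in CM the same probe gave -0.06. After subtracting its neighbours the gap in NCM was -0.64. ALDH2, the mitochondrial aldehyde dehydrogenase, read 0.99, 1.15 and 0.89 at T0 and 0.34, 0.017 and 0.44 at 16 h, a difference of -0.75. Its other 2 probes gave -0.22 and -0.0096.

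UGT2B7, which attaches glucuronic acid to steroids and opioids, had a higher mean at 16 h. It read 0.46, -0.69 and 1.57 at T0 and 1.58, 2.02 and 1.81 at 16 h, a difference of 1.36 ± 0.54 (SE). The NCM means at the times between were 1.47 to 1.9, so among the NCM times only T0 was low. T0 replicate 3 nearly reached the lowest 16 h array, and the other UGT2B7 probes gave 0.23 and -0.06. UGT2B genes are similar in sequence, so the probe may read more than 1 of them. MGST1, a microsomal glutathione transferase, read 0.57, -0.73 and 1.16 at T0 and -1.91, -0.97 and -0.5 at 16 h. The difference was -1.46 ± 0.53 (SE), yet the groups overlapped through T0 replicate 2, and the other MGST1 probes gave 0.1, -0.43 and -0.78. ABCC2, which exports conjugates into bile, read -1.15, -1.7 and -2.4 at T0 and -0.75, -0.58 and -1.18 at 16 h, a difference of 0.91 with overlap at 1 array. After subtracting its neighbours it was 0.36, and the other ABCC2 probes gave 0.43 and -0.11.

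The clearest shift of a gene group was in the cytosolic ribosomal proteins. Of 54 measured genes, 47 were lower at 16 h and 7 higher, where 53.5% of all genes were lower, with a median change of -0.54 beside -0.03 over all genes. The changes of single genes ran from -1.33 to 0.77. The groups did not overlap in 20 genes, lower at 16 h (37.0%), against a background of 4.39% of all genes, and in 1 gene higher, against 3.36%. At an unadjusted p under 0.05 there were 10 genes lower and 0 higher, against backgrounds of 2.88% and 1.05%, and no gene passed adjustment. All probes of these genes gave the same picture, with 98 of 112 lower and a median of -0.58. Many ribosomal protein genes have processed copies elsewhere in the genome, so a probe may read more than 1 locus.

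The median log2 level of the 54 genes was 1.16, 1.42 and 1.13 on the T0 arrays and 0.34, 0.79 and 1.13 on the 16 h arrays. NCM 16 h replicate 3 thus sat level with the lowest T0 array, and replicate 1 sat farthest below. Without NCM 16 h replicate 1 the median change was -0.35, and over the other 5 omissions it lay between -0.75 and -0.45. Within cluster 1 of the arrays, which holds T0 replicate 1 and 16 h replicates 2 and 3, it was -0.26. Within cluster 2, which holds 1 array of each time, it was -1.0. Each of these 2 values rests on a single array at T0 and has no test.

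These genes have bright probes, and 52 of the 54 were among the 1408 brightest of the 5631 genes. Those 1408 had a median change of -0.02, with 52% lower and 7.32% apart in the lower direction. The median of the ribosomal protein genes thus lay below that of these 1408 genes taken as a whole, which were not matched to them in intensity. Among the 1408 dimmest genes, 2.63% were apart in the lower direction. The part of intensity in the shift was not tested. The plot of change against intensity shows each gene.

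**Figure D3:**
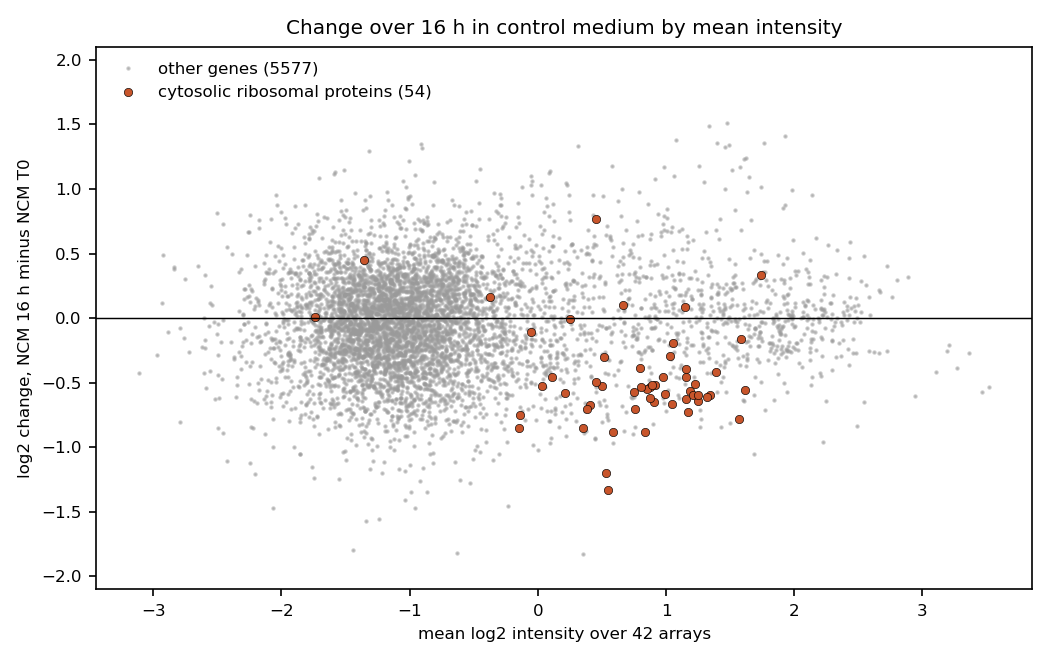
Log2 change from T0 to 16 h in NCM against mean log2 intensity over 42 arrays, 1 point for each of 5631 genes, with the 54 cytosolic ribosomal protein genes in orange. Of those, 47 lie below 0, and the median of the 54 is -0.54. The 1408 brightest genes, which include 52 of them, have a median of -0.02.

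In the small subunit, RPS3A and RPS3 had the largest differences of the 54. RPS3A read 0.63, 1.14 and 0.92 at T0 and -1.03, -0.06 and 0.16 at 16 h, a difference of -1.2 ± 0.47 (SE). RPS3 read 1.05, 1.31 and 1.06 at T0 and 0.43, -1.16 and 0.15 at 16 h, a difference of -1.33 ± 0.53 (SE). In both, all 16 h arrays lay below all T0 arrays (limma adjusted p = 0.998 for each). In the large subunit, RPL35A differed by -0.85 and RPL27 by -0.89, and in each NCM 16 h replicate 3 lay within the T0 range. The mean over both RPL35A probes was -0.14, and over both RPS3A probes -0.88. The member farthest the other way, RPS23, read 0.74, -0.86 and 0.09 at T0 and 0.69, 1.05 and 0.55 at 16 h, with overlap.

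The start regions of these 5 genes are shown because the pyrimidine tract there is what the messages of this group share. They are RefSeq sequences of GRCh38.p14, on the strand of the gene, from 30 bases before the annotated start to 20 bases from it on. In capitals is the longest run of at least 7 C or T that reaches into the window from 5 bases before to 10 bases after the start. RPS3A is at chr4:151099598-151099647, RPS3 at chr11:75399488-75399537, RPL35A at chr3:197950160-197950209 and RPL27 at chr17:42998389-42998438, all on the plus strand. RPS23 is at chr5:82278335-82278384 on the minus strand.
RPS3A: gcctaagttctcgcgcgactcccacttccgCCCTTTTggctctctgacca
RPS3: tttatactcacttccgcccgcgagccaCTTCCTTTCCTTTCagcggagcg
RPL35A: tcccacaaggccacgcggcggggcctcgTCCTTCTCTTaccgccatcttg
RPL27: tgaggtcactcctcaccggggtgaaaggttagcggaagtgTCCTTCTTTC
RPS23: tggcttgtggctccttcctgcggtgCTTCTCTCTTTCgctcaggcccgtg
The run is 7 bases in RPS3A, 14 in RPS3, 10 in RPL35A and 12 in RPS23. In RPL27 it is 16 bases, of which the first 10 are shown, and it begins 10 bases after the annotated start, so it meets the window only at its edge and does not touch the start. A run reaching into this window was found in 41 of the 48 ribosomal protein genes with a RefSeq entry (85.4%). It was found in 18.2% of all 27305 genes in the table and in 18.9% of the 4694 genes measured here that had an entry.

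The rest of the course shows when the ribosomal protein values were low. Of 18 NCM arrays after T0, 15 had a list median below the lowest T0 array, including 3 of 3 at 15 min. Group means of the list median were 1.24 at T0, 0.89 at 15 min, 0.88 at 30 min, 1.05 at 1 h, 0.67 at 3 h, 0.93 at 6 h and 0.75 at 16 h. The lower level was thus already there at 15 min and had no steady course after it. With the mean of T0, 15 min and 30 min as the start, the median change at 16 h was -0.30.

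In CM, 46 of the 54 genes were lower at 16 h than at T0, 44 of them also lower in NCM, with a median of -0.28, where 52.5% of all genes were lower in CM. The groups did not overlap in 7 genes, lower at 16 h, against 3.84% of all genes in CM. CM list medians were 1.16, 0.86 and 1.29 at T0 and 1.01, 0.68 and 0.83 at 16 h, and 12 of 18 later CM arrays lay below the lowest CM array at T0. The CM cultures are other cells and arrays but come from the same batches of cells as the NCM cultures of their time, and each CM array at T0 and 16 h lay in the same array cluster as its NCM partner. The CM values are therefore not an independent repeat. In both media the tests found 0 probes at 16 h against T0, with 178 probes at an unadjusted p under 0.05 in CM (1.29%). The difference between the media also passed for 0 probes, with 538 at an unadjusted p under 0.05 (3.89%).

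**Figure D4:**
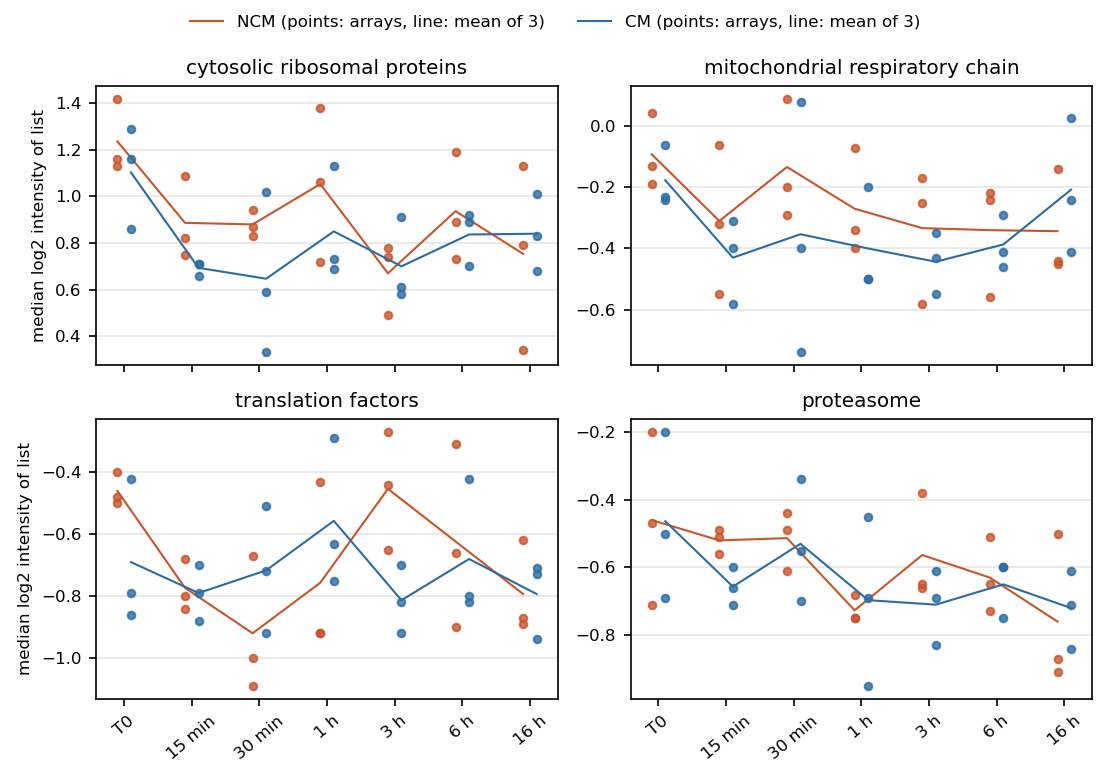
Median log2 intensity over the genes of 4 lists on each array, by time (not to scale) and medium; points are arrays and lines join the means of 3 arrays. Ribosomal proteins start at 1.24 in NCM and 1.10 in CM and lie lower at every later time in both media.

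The subunits of the mitochondrial respiratory chain, which drive ATP synthesis by oxidation, also lay low. Of 61 measured, 44 were lower and 17 higher, where 53.5% of all genes were lower, with a median of -0.30. The groups did not overlap in 10 genes in the lower direction (16.4%), against 4.39% of all genes, and in 1 in the higher, against 3.36%. NDUFB7, an accessory subunit of complex I, read 2.03, 1.63 and 2.0 at T0 and 0.63, 0.93 and 0.95 at 16 h. NDUFS6, a complex I subunit near the iron-sulfur clusters, read 0.22, 0.49 and -0.18 at T0 and -0.9, -1.01 and -0.87 at 16 h. Neither gene's groups overlapped, and the differences were -1.05 ± 0.32 and -1.1 ± 0.34 (SE, limma adjusted p = 0.998 for each). In CM they were 0.05 and 0.0094, and over the list the CM median was -0.10. NDUFB7 in NCM was at 1.4 to 1.84 at the times between, so its low value was found at 16 h alone, and it was -0.5 after subtracting its neighbours. The mean over both probes was -0.82 for NDUFB7 and -0.36 for NDUFS6, whose probes differ in sign. Without NCM 16 h replicate 1 the list's median was -0.17, and without T0 replicate 2 it was -0.18.

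Translation factors, which load and move the ribosome, had 19 of 27 genes lower, where 53.5% of all genes were lower. Their median was -0.24, and it was -0.16 without NCM 16 h replicate 2 and 0.0071 within cluster 2. The groups did not overlap in 3 genes in the lower direction (11.1%), against 4.39% of all genes. In the higher direction this was so in 1 gene, against 3.36%. EIF4B, which helps unwind messages, read -0.71, -0.06 and -0.5 at T0 and -1.09, -1.57 and -1.08 at 16 h. TPT1, whose own message has a pyrimidine tract, read 0.85, 1.43 and 0.88 at T0 and -0.3, 0.32 and 0.77 at 16 h. In both, the groups did not overlap, but the second EIF4B probe gave -0.032. The proteasome list, which also holds the assembly chaperone PSMD5, had 21 of 26 lower and a median of -0.22, but none with groups apart in that direction. Without NCM 16 h replicate 1 that median was 0.016, and without T0 replicate 3 it was -0.12.

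Heat shock proteins and chaperones had 17 of 22 lower, where 53.5% of all genes were lower, and a median of -0.25. In 2 of them (9.09%) the groups were apart in the lower direction, against 4.39% of all genes. The secretory pathway, through which plasma proteins leave the cell, had 23 of 32 lower with a median of -0.08, and of -0.037 without NCM 16 h replicate 1. SSR4, a subunit of the translocon-associated complex, differed by -0.94. SEC62, part of the translocation channel, differed by 1.14, but the mean of its 5 probes was 0.044. In glycolysis 13 of 16 were lower with a median of -0.10, which was -0.0086 without NCM 16 h replicate 2.

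The cytoskeleton list of actin genes and targets of SRF or YAP had 15 of 23 lower, where 53.5% of all genes were lower. Its median was -0.27. That median was -0.11 on the values as deposited, -0.14 with median centring and -0.16 without NCM 16 h replicate 1. ACTB, cytoplasmic actin, had tight groups. It read 1.58, 1.66 and 1.64 at T0 and 0.9, 0.97 and 0.89 at 16 h. The gap of -0.71 far exceeded the SDs of 0.043 and 0.044 (n = 3 arrays each), and limma, which draws on the 7 NCM groups and all probes, gave a standard error of 0.34 and an adjusted p of 0.998. A second ACTB probe read 0.81, 1.74 and 0.98 at T0 and 0.33, -0.08 and 0.3 at 16 h. In CM the first probe read 1.42, 1.46 and 1.74 at T0 and 1.26, 1.05 and 0.83 at 16 h, again apart. Between T0 and 16 h the NCM group means ran from 1.16 at 15 min to 1.59 at 1 h. ACTB is often used as a reference gene for other measurements.

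TMSB10, which binds actin monomers, read 2.31, 2.43 and 2.23 at T0 and 1.19, 1.95 and 0.95 at 16 h. Its mean in each of the 12 groups other than these was between 2.09 and 2.52. The 16 h NCM arrays were thus low against every other group, and CM at 16 h read 2.27, 2.48 and 2.15. The test of the difference between media gave 1.03 for TMSB10 with a limma adjusted p of 0.986.

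Among early response and growth genes, MYC, a transcription factor that drives ribosome production and growth, lay higher at 16 h without passing the test. It read -1.96, -1.5 and -1.58 at T0 and -1.32, -0.85 and -0.12 at 16 h, a difference of 0.92 ± 0.4 (SE, limma adjusted p = 0.998). In CM it read -1.65, -1.49 and -1.76 at T0 and -0.86, -0.48 and -0.24 at 16 h, a difference of 1.11. In both media the groups did not overlap. The NCM means were -0.63 at 15 min, -0.15 at 30 min, -1.22 at 1 h, -0.56 at 3 h and -0.49 at 6 h, so T0 was the lowest of the 7 times. With the mean of T0, 15 min and 30 min as the start, the MYC difference was 0.05. The list of early genes had 16 of 25 lower, where 53.5% of all genes were lower, with a median of -0.30. That median was -0.12 without NCM 16 h replicate 1, -0.08 without 16 h replicate 3 and -0.08 on the values as deposited. FOS and JUN differed by 0.23 and 0.26 with overlap. The other FOS probe gave -0.57, and its values at 16 h equalled those of the first. DDIT4, an inhibitor of mTORC1, read -0.21, 0.32 and -0.85 at T0 and -1.02, -1.16 and -0.93 at 16 h.

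SCD, the desaturase that makes oleate, lay lower in both media without passing the test. It read 0.21, 0.42 and -0.13 at T0 and -0.76, -0.15 and -0.44 at 16 h in NCM, a difference of -0.62. In CM the difference was -0.56, and in both media the groups did not overlap. Its second probe gave -0.29. Over all genes, 29 were apart and lower in both media, 11.7% of the 247 in NCM and 13.4% of the 216 in CM (3.84% of all genes). Another 11 were apart and higher in both, 5.82% of the 189 in NCM and 8.09% of the 136 in CM (2.42% of all genes). In opposite directions there were 3 and 2. Because each CM array shares a cell batch and an array cluster with its NCM partner, the shares over all genes are not what these overlaps would be with no change.

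The genes of smallest p with groups apart are named as values that did not pass. Among the 10 lower, EMC4, a subunit of the complex that inserts membrane proteins into the endoplasmic reticulum, had the smallest p of all probes. It read -0.56, 0.23 and -0.18 at T0 and -1.28, -1.2 and -1.53 at 16 h, a difference of -1.17 ± 0.22 (SE, limma adjusted p = 0.685). The 12 groups other than these had means from -1.35 to -0.94. The T0 NCM arrays were thus high against every other group, CM at T0 included, which stood at -1.06.

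The others were CARF, MSANTD3, RNF214, TMSB10, ECE1, which processes endothelin, ADH4, DPF2, a chromatin remodelling subunit, ADSL of purine synthesis and PTTG1IP. Their changes lay between -1.56 and -0.84. CARF and RNF214 carry probe numbers 6981 and 6983, and subtracting the mean of the neighbouring probes took them from -1.56 to -0.98 and from -1.14 to -0.61. DPF2 went from -0.84 to -0.39 in the same way. MSANTD3 and ADSL were apart and lower in CM as well, at -0.57 and -0.51.

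The 10 higher were COQ5 of ubiquinone synthesis, PSME4, a proteasome activator, CCDC137, MTPAP, which adds poly(A) to mitochondrial RNA, BCL2L11, a promoter of apoptosis, UBL7, DGCR2, PPP2CA, the catalytic subunit of a phosphatase, WTAP of the RNA methylation complex and RILPL1. Their changes lay between 0.67 and 1.12. PSME4 read -0.57, -0.95 and -0.24 at T0 and 0.73, 0.62 and 0.25 at 16 h. Its other probes brought the gene's mean change to 0.43. WTAP read -1.01, -1.34 and -0.96 at T0 and -0.42, -0.06 and -0.51 at 16 h. It was the only one of these 10 that was also apart and higher in CM, at 0.83. The NCM means of WTAP were -1.1 at T0, -0.032 at 30 min, -1.11 at 6 h and -0.33 at 16 h. Neither the T0 nor the 16 h mean thus lay outside the range of the times between. With the mean of T0, 15 min and 30 min as the start, the WTAP difference was 0.16.

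**Figure D5:**
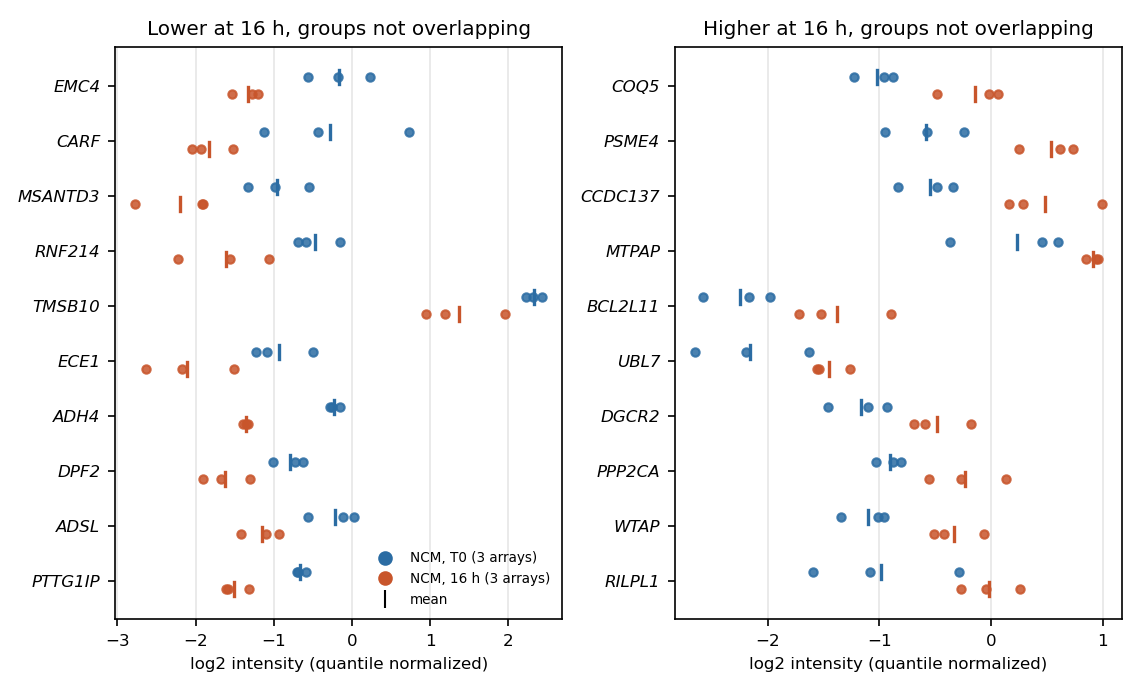
Log2 intensity of the 10 genes of smallest p in each direction whose groups do not overlap, on the 3 NCM T0 arrays (blue) and the 3 NCM 16 h arrays (orange), with group means as bars. The genes were chosen for groups that do not overlap, so the separation is not a finding; ADH4 has tight groups, and none passed the test.

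Set against the 5 NCM times between, T0 and 16 h did not contribute alike. Of the 247 genes apart and lower at 16 h, the T0 mean alone lay outside the range of the times between in 108 (43.7%), and the 16 h mean alone in 39 (15.8%). Over all 5631 genes the shares were 26.1% and 16.2%. Among the 189 genes apart and higher they were 38.6% and 25.9%. For the 54 ribosomal proteins they were 44.4% and 9.26%. Both means lay outside in 72 of the 247, 33 of the 189, 13 of the 54 and 787 of all 5631 genes. A T0 mean alone outside the range was thus more frequent than a 16 h mean alone, in these sets and over all genes. The 247 and the 189 were chosen for T0 and 16 h groups that do not overlap. A slope over the 7 NCM times passed for 0 probes with limma, with 535 at an unadjusted p under 0.05 (3.87%).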

How the data were processed

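Gene expression was measured on 42 arrays of total RNA. The authors deposited 1 table of linear intensity values, with a mean near 1 on each array and up to 2.12% of values below 0. No scanner, background correction or scaling is given in the sources used here, and read depth does not apply, so the number of arrays limits the precision. The deposited intensities were quantile-normalized over the 42 arrays, floored at their 1st percentile (0.0813) and turned into log2. Of 13824 probes, 7336 had 1 gene symbol in the platform table, 576 had several and 5912 had none, and each of 5631 genes was read by its brightest probe. limma 3.58.1 in R 4.3.3 was fitted to the 21 NCM arrays with 7 group means and no block, with two-sided moderated tests, Benjamini-Hochberg adjustment over all probes and a threshold of 0.05. CM was fitted alike. The difference between media used all 42 arrays with culture pairs as a block. An exact permutation test of 3 against 3 arrays could not go below 0.1. The fit was tested on simulated data.

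Members and the 45 gene lists were chosen with earlier results of these data known, so lists are described by counts and medians. Genes named are up to 10 in each direction of smallest p among those with groups apart, a list of 42 fixed genes of which 33 were measured, and from each list up to 4 members with an unadjusted p under 0.05 and the member of largest change in each direction. The p-values for 16 h against T0 set each change against the spread between replicate experiments, pooled over all groups in the fit. That spread is moderated with the values of all probes, so it is not the spread of the compared arrays alone. Figures were drawn with matplotlib 3.10.9. Alternatives were other scalings, floors, filters, blocks, starts, probe summaries and omitted arrays.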

Additional observations from a re-analysis of the deposited data

How the results depend on the processing

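The count of probes past the threshold for 16 h against T0 was 0 in all 22 alternatives, with 299 to 943 probes at an unadjusted p under 0.05, or 216 genes where the probes of a gene were averaged. The other 3 tests also stayed at 0, with 72 to 1244. Under the replicate block, which treats equal numbers at T0 and 16 h as pairs, 0 probes passed and 679 had an unadjusted p under 0.05. Deviations of same-numbered arrays correlated at -0.43, -0.32 and 0.13. The highest correlations, 0.5 and 0.36, were between arrays of the same cluster with different numbers. With the clusters mixed in, these correlations cannot decide whether the numbers pair the times. EMC4 had adjusted p-values from 0.123 to 1. Of 3028 recomputed differences of named genes 86 changed sign, and of 1128 list medians 173 did, none of them past the threshold. With the array clusters as a block, chosen after seeing the data, the ribosomal protein median was -0.51, with neighbour centring -0.47 and on the values as deposited -0.54. The respiratory chain median was -0.11 with the mean of T0, 15 min and 30 min as the start, and that of translation factors was -0.05. The cause of these shifts was not tested.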

Other observations

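Some probes followed the array clusters and not the times. PSMD5, a proteasome assembly chaperone, read -3.54, 1.68 and 1.9 at T0 and 1.93, -3.62 and -1.37 at 16 h. HSPE1, the mitochondrial co-chaperonin, read -3.3, 1.33 and 0.2 at T0 and -0.32, -2.89 and -2.17 at 16 h. In both, the 3 arrays of cluster 1 were the low ones. FOXA3, a liver transcription factor, read 0.18, -1.51 and -1.32 at T0 and -1.51, 0.18 and 0.19 at 16 h, with the arrays of cluster 1 high. These values entered the list medians.

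Among stress genes, the amino acid response and integrated stress list had 14 of 21 lower in NCM, where 53.5% of all genes were lower. Its median was -0.18, and -0.10 without NCM 16 h replicate 3. HMOX1, heme oxygenase, read -0.93, -1.05 and -1.28 at T0 and -0.67, -0.86 and 0.75 at 16 h, and the difference of 0.83 was 0.32 without NCM 16 h replicate 3. The other 2 HMOX1 probes gave -0.55 and -0.6, and the mean over the 3 probes was -0.11. The hypoxia list had a median of -0.05 over 17 genes, and of 0.23 without NCM 16 h replicate 3, and LDHA and VEGFA differed by -0.05 and -0.24. HSPA5, the main chaperone of the endoplasmic reticulum, differed by -0.54 ± 0.56 (SE). Haptoglobin, HP, differed by 0.68 ± 0.5 in NCM and by 1.52 in CM, while its other probe gave -0.26 in NCM and 0.14 in CM. CCL20, a chemokine, differed by -0.67 in NCM and by 0.6 in CM, where the groups were apart.

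Cell cycle genes gave medians of -0.14 over 17 genes of DNA replication and -0.03 over 22 genes of mitosis in NCM. Without T0 replicate 2 the first was 0.036 and the second 0.13, and without T0 replicate 3 the first was -0.34. In CM the replication list had a median of 0.18.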
